A study of Rattus norvegicus with 6 samples.

Results

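The DNA damage checkpoint genes described here are 10 genes that encode the kinases and mediators through which cells detect damaged DNA and delay the cell cycle: Atm, Atr, Topbp1, Clspn, Mdc1, Tp53bp1, Chek1, Chek2, Wee1 and Cdc25a. They were chosen by gene symbol, each matched exactly 1 row of the 18930 in the deposited count table, and all 10 passed the filter on low counts that left 11870 genes. NRK-52E cells, an established rat kidney epithelial line labelled as wild type in both groups, were treated with 10 mM of streptozotocin (STZ), a glucosamine-linked nitrosourea that alkylates DNA, for 24 h (STZ, 3 samples) or with vehicle (Control, 3 samples). RNA was sequenced from poly(A)-selected, stranded libraries, and uniquely mapped reads were counted per gene. All groups derive from a single cell line, no other dose or time was sequenced, and the labels do not say whether the 3 samples of a group were separate cultures, so p-values measure the spread between these samples, which may be technical.

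The checkpoint works as a relay. ATM is a large kinase that is switched on by DNA double-strand breaks, and ATR is a related kinase that is recruited to single-stranded DNA at stalled replication forks. TOPBP1 activates ATR, and claspin, the product of Clspn, holds the effector kinase CHK1 (Chek1) in place for ATR to phosphorylate it. ATM acts mainly on the effector kinase CHK2 (Chek2), and MDC1 and the p53-binding protein encoded by Tp53bp1 gather on the chromatin beside a break. WEE1 places an inhibitory phosphate on cyclin-dependent kinases, CDC25A removes it, and the effector kinases target CDC25A for destruction. Much of this relay runs through phosphorylation and protein turnover, which RNA counts do not measure.

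The 6 libraries held 10430924 to 15191349 counts, and the STZ libraries had the higher median, so levels are given as CPM, counts per 1000000 reads on tested genes after TMM scaling. The coefficient of variation between replicates that edgeR estimated in common for all genes, with sampling noise left out, was 3.25%. The observed spread of a single gene also holds sampling noise and can be larger. The counts of any 2 replicates were further apart than sampling noise (chi-square per degree of freedom, 1.93 to 2.69). Of the kidney epithelial markers, Krt8 had 11691 to 24040 reads per library, while Cdh1 had 16 to 35 and Krt18 at most 3; Krt19 and Epcam were not analysed here. Of the proximal tubule markers, Aqp1 had 66 to 167 reads, and Lrp2, Cubn, Slc34a1 and Slc5a2 had at most 10, so the defining transporter and receptor genes of that segment were near 0. Of the fibroblast markers, Col1a1 and Pdgfrb had 184 to 414 reads, and Pdgfra and Col1a2 at most 4. The immune markers Ptprc and Cd3e had at most 4. Krt8 rose (log2 fold change 0.48), and Aqp1 and Pdgfrb fell (-1.25 and -0.33) with STZ. Cdh1 and Col1a1 were also called lower (-0.69 and -0.27), but neither call held without STZ replicate 3 (edgeR adjusted p = 0.223 and 0.226) or Control replicate 3 (0.0847 and 0.0574), and that of Cdh1 also not without Control replicate 1 (0.113) or STZ replicate 1 (0.0572), nor with DESeq2 (0.113). The part of these markers in the results on checkpoint genes was not tested. In bulk RNA, fewer cells of a type and less RNA per cell cannot be told apart.

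STZ changed the RNA of these genes little. Chek2 fell by 22.5% and Wee1 fell by 21.0%, the largest differences among the 10. Chek1 fell by 13.9%, Atm fell by 9.09% and Mdc1 fell by 8.59%. Tp53bp1 rose by 8.03%. Atr, Topbp1, Clspn and Cdc25a did not pass the test. Genes were called where the Benjamini-Hochberg adjusted p from edgeR (quasi-likelihood F test, fitted to all genes) was under 0.05, and 6 of the 10 were called, 5 lower and 1 higher. The same test called 50.9% of all genes, 25.1% lower and 25.9% higher, so the share of checkpoint genes called was near that of genes in general. None of the 10 passed the study's further threshold of an absolute log2 fold change over 1, which 3.37% of all genes passed, and none reached that size whatever its p. The median log2 fold change of the 10 genes was -0.09, against -0.0055 over all genes tested. Library scaling moved the call for Tp53bp1: with library size only or with the upper quartile, 5 genes were lower and 0 higher. Tp53bp1 was then no longer called, though its log2 fold change stayed positive (0.08 and 0.09). With DESeq2's Wald test only Chek2 and Wee1 were called. With 1 library left out, the number called was 4 without Control replicate 1 or 2. It was 3 without Control replicate 3 or any of the STZ replicates. Of all genes, 51.8% were called with library size only, 51.2% with the upper quartile and 42.5% with DESeq2. With 1 library left out, 45.2% to 47% of all genes were called.

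**Figure D1:**
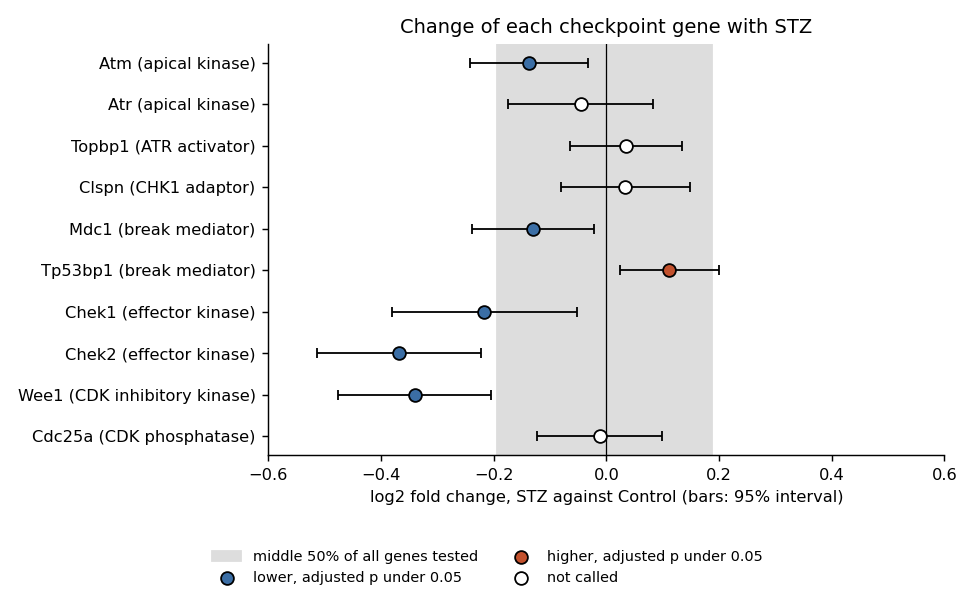
The log2 fold change (STZ against Control) of each checkpoint gene is plotted with its 95% interval, ordered by role, and the grey band covers the middle 50% of all 11870 genes tested (-0.19 to 0.19). Chek2 (-0.37), Wee1 (-0.34) and Chek1 (-0.22) lie to the left of the band, and the other 7 genes lie inside it.

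The promoters are shown because several of these genes are known as targets of E2F, the factor that drives S-phase genes. RefSeq promoter sequences (GRCr8) were found for 7 of the 10 genes; Chek2, Wee1 and Mdc1 were not found. The 250 bases before the start site were searched on both strands for 8 words of the E2F type, TTTCCCGC, TTTCCCGG, TTTCGCGC, TTTCGCGG, TTTGCCGC, TTTGCCGG, TTTGGCGC and TTTGGCGG, which were chosen with these sequences in view, so that the counts describe letters and support nothing about E2F. At least 1 word was found for 5 of these 7 genes, for 4 of 8 S-phase genes with a sequence, and in 3.73% of all 33469 promoters of the table, coding and non-coding alike. Genes were counted if any of their start sites had a word, whereas the share of all promoters counts each start site on its own. These shares are therefore not like for like. The words overlap each other on opposite strands in Chek1 and Topbp1. Each sequence is written 5′ to 3′ in the direction of the gene, ends at the base before the start site, and has the matches in capitals. The table holds 3 starts of Topbp1; the first is shown, the second lies beside it and holds the same words, and the third window holds no word.
Chek1, chr8:44629844-44630093, minus strand: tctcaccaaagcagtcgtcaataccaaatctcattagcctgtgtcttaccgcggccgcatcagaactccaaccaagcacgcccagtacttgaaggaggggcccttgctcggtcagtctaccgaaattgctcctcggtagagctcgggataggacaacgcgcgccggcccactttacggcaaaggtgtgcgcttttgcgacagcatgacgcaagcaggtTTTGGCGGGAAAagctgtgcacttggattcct
Topbp1, chr8:112766541-112766790, plus strand: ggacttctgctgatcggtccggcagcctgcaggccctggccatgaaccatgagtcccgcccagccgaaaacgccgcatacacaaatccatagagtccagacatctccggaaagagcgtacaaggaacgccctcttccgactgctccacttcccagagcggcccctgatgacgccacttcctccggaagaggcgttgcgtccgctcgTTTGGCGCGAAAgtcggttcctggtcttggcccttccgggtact
Clspn, chr5:144134387-144134636, plus strand: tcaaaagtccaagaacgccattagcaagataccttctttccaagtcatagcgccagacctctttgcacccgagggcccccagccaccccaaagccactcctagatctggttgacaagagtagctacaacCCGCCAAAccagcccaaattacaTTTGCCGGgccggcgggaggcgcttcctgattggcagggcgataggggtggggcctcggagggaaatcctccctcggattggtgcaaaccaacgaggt
Cdc25a, chr8:118742798-118743047, plus strand: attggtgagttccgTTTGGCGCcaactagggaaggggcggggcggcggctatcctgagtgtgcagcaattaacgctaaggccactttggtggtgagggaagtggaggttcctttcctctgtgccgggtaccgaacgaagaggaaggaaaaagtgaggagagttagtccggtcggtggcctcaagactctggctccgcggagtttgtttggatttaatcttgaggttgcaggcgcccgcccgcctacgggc
Atm, chr8:62828630-62828879, minus strand: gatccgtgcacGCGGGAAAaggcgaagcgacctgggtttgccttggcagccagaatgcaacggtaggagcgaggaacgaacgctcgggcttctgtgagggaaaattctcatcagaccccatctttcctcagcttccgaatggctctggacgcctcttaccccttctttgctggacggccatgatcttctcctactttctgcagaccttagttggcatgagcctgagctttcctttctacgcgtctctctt
Counted back from the start site, the matches begin at -32 and -28 in Chek1, -44 and -40 in Topbp1, -121 and -98 in Clspn, -236 in Cdc25a and -239 in Atm. No word was found in the windows of Atr and Tp53bp1. A match is a description of letters and does not show binding. Of these 5 genes, Chek1 and Atm were called lower, and Topbp1, Clspn and Cdc25a were not called. Differences between genes in their change with STZ were not tested.

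Of the apical kinases, Atm fell and Atr was not called. Atm had 75.1, 81.0 and 79.7 CPM in Control and 75.5, 68.1 and 70.7 CPM in STZ. STZ replicate 1 lay within the Control range and the other 2 STZ samples lay under it. The log2 fold change of Atm was -0.14 (SE 0.05, edgeR adjusted p = 0.0253). The call for Atm did not hold without Control replicate 2 (adjusted p = 0.106), Control replicate 3 (0.0670), STZ replicate 2 (0.126) or STZ replicate 3 (0.0822), nor with DESeq2 (0.0726). Atr had 41.5, 44.7 and 47.0 CPM in Control and 40.6, 44.9 and 44.1 CPM in STZ, so the groups overlapped. For Atr the log2 fold change was -0.05, with a 95% interval from -0.17 to 0.08, that is from -11.3% to 5.96%.

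Among relatives of the apical kinases, Prkdc, which encodes the DNA-dependent protein kinase of break rejoining, fell from 47.6 ± 4.02 CPM in Control to 36.8 ± 1.35 CPM in STZ (SD, n = 3 each), a log2 fold change of -0.37 (edgeR adjusted p = 7.16e-06). All 3 STZ samples had less Prkdc than all Control samples. In the list of related kinases and the factors that assemble them, 3 of 6 genes were lower, 0 higher (also at an unadjusted p under 0.05, edgeR) and 3 not called. Smg1, a kinase of RNA surveillance, and Telo2, which stabilizes this kinase family, were the other genes lowered (-0.18 and -0.33). Mtor, the growth-regulating kinase of the same family, and the assembly factors Tti1 and Tti2 had log2 fold changes of -0.03, -0.04 and 0.06 and were not called. The list had 50% of its genes called, near the share of all genes, and a median of -0.11.

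The ATR branch has Topbp1 and Clspn as its activator and adaptor. Topbp1 had 99.0, 96.8 and 104.7 CPM in Control and 101.8, 96.7 and 109.1 CPM in STZ. For Topbp1 the interval of the log2 fold change ran from -0.06 to 0.13, with the estimate at 0.04 (adjusted p = 0.572). Clspn had 65.7, 63.8 and 66.1 CPM in Control, and 60.6, 71.1 and 69.0 CPM in STZ. The 3 STZ values of Clspn spread on both sides of the Control values, and the interval ran from -0.08 to 0.15. In percent, the intervals ran from -4.32% to 9.78% for Topbp1 and from -5.38% to 10.8% for Clspn. In the GRCr8 annotation the span of Topbp1 overlaps Cdv3, which rose (log2 fold change 0.31), and the strand option used for counting is unknown here, which bears on how well the pair is separated.

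Other sensors on the ATR side moved in both directions. Rpa1 and Rpa2, the large and middle subunits of the protein that coats single-stranded DNA, rose (log2 fold changes 0.18 and 0.19), while Rpa3, the small subunit, fell (-0.34). Timeless fell from 90.8 ± 1.64 to 77.0 ± 1.5 CPM (SD, n = 3 each), a log2 fold change of -0.24 (adjusted p = 5.39e-05, edgeR), and its partner at replication forks, Tipin, was called lower too (-0.17), though not without Control replicate 1 (adjusted p = 0.110), STZ replicate 2 (0.0625) or STZ replicate 3 (0.0592), nor with DESeq2 (0.0700). Atrip, the obligate partner of ATR, had 17.1 ± 0.492 CPM in Control and 17.5 ± 1.33 CPM in STZ and was not called. The clamp genes Rad9a, Rad1 and Hus1, and the clamp loader gene Rad17, were not called either. Of 10 genes tested in the list, 2 were higher, 3 lower and 5 not called, so that 50% were called, near the 50.9% of all genes, and the median was -0.11. Etaa1, a further ATR activator, was not analysed here.

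The mediators at chromatin moved in opposite directions. Mdc1 had 65.2, 62.3 and 64.5 CPM in Control and 57.8, 59.8 and 58.1 CPM in STZ, with every STZ sample under every Control sample. Its difference was small, with a log2 fold change of -0.13 (SE 0.05, edgeR adjusted p = 0.0405). The call for Mdc1 did not hold without Control replicate 1 (adjusted p = 0.108), Control replicate 3 (0.0868), STZ replicate 1 (0.113) or STZ replicate 3 (0.0980), nor with no filter (0.0693), after thinning to equal depth (0.0782) or with DESeq2 (0.110). Tp53bp1 had 143.4, 133.1 and 132.4 CPM in Control and 146.2, 149.3 and 146.1 CPM in STZ, and here every STZ sample lay above every Control sample. The rise was 0.11 on the log2 scale (SE 0.04, edgeR adjusted p = 0.0299). It was not called without Control replicate 2 (adjusted p = 0.116), Control replicate 3 (0.114), STZ replicate 1 (0.0522), STZ replicate 2 (0.0812) or STZ replicate 3 (0.0523), with library size only (0.136), with the upper quartile (0.0735) or with DESeq2 (0.0607).

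A neighbour of Tp53bp1 moved far more. In the GRCr8 annotation the span of Tp53bp1 overlaps Map1a, a microtubule-associated protein gene, and Tubgcp4, a gene of the microtubule-nucleating complex. Map1a had 32.0, 29.6 and 34.2 CPM in Control and 61.8, 62.4 and 62.2 CPM in STZ, a log2 fold change of 0.96 (edgeR adjusted p = 5.95e-17). Tubgcp4 was not called (log2 fold change -0.08). The part of reads from Map1a in the Tp53bp1 result was not tested. The spans of Atm and Atr each overlap a long non-coding RNA, and that of Atr also a pseudogene. The span of Wee1 overlaps a small nuclear RNA and that of Clspn the gene C5h1orf216. These neighbours were not found by symbol among the genes tested. Chek1, Chek2, Cdc25a and Mdc1 have no overlapping gene in that annotation.

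The other break sensors and mediators that were called were lower. Of 12 genes, 7 were lower, 0 higher (also at an unadjusted p under 0.05, edgeR) and 5 not called; 58.3% were called, near the 50.9% of all genes, of which 25.1% were lower. The median log2 fold change was -0.29. H2ax, which encodes the histone variant whose phosphorylated form marks breaks, had 692, 673 and 840 reads in Control and 442, 392 and 503 in STZ. This was a fall from 64.0 ± 2.41 to 33.2 ± 1.0 CPM (SD, n = 3 each), a log2 fold change of -0.95 (adjusted p = 2.94e-17, edgeR). H2ax RNA can end in a histone stem-loop or in a poly(A) tail, and poly(A)-selected libraries sample the second form. Rif1, the partner through which Tp53bp1 protects broken ends, fell from 96.5 ± 6.76 to 68.0 ± 2.52 CPM (SD, n = 3 each; log2 fold change -0.51, edgeR adjusted p = 7.0e-11). Paxip1, another partner of the Tp53bp1 protein, and Nbn, the break sensor that recruits ATM, also fell (-0.40 and -0.33), as did the ubiquitin ligase gene Rnf8, the acetyltransferase gene Kat5 and the ubiquitin protease gene Usp28. Mre11 and Rad50, whose proteins form a complex with NBN, were not called (log2 fold changes -0.08 and -0.07), nor were Rnf168, Uimc1 and Babam1.

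**Figure D2:**
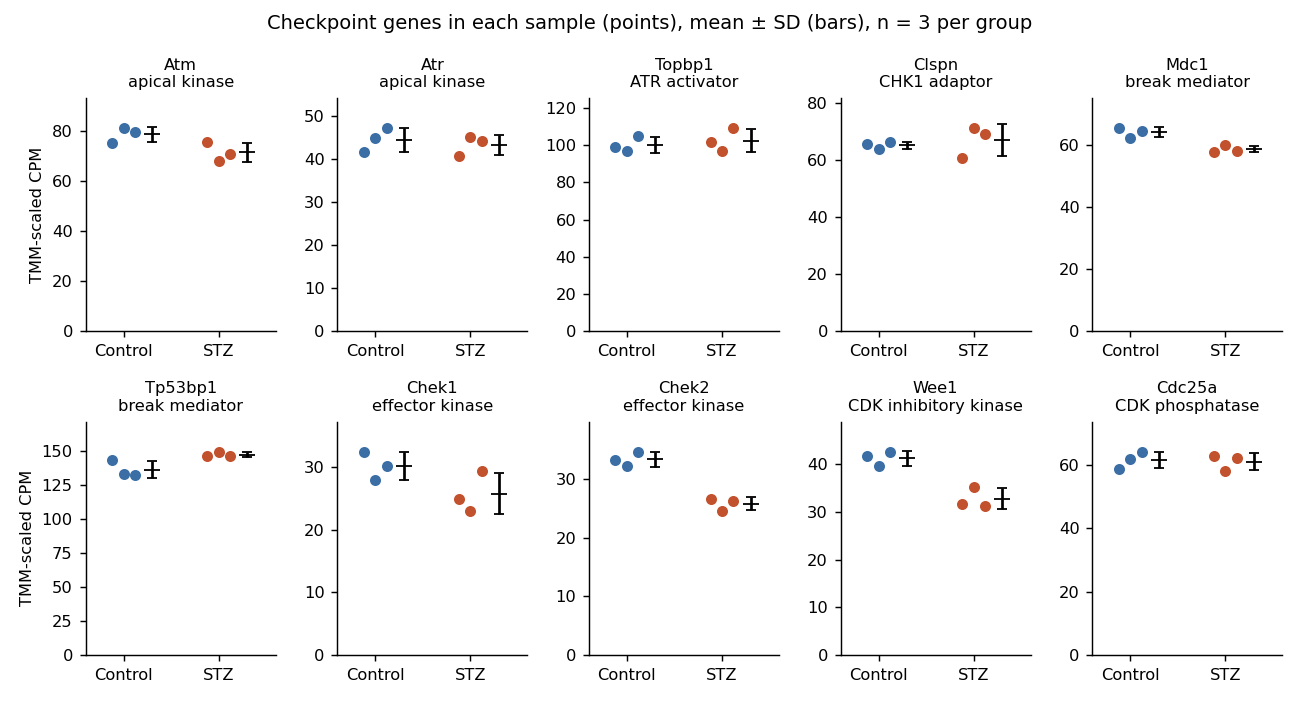
Each panel plots 1 checkpoint gene, in TMM-scaled CPM from 0, with a point for each of the 3 Control and 3 STZ samples and the mean ± SD beside them. The groups are apart for Chek2, Wee1 and Mdc1 (STZ below) and for Tp53bp1 (STZ above), and overlap for the other 6 genes.

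The effector kinases were both lower. Chek2 had 353, 354 and 444 reads in Control and 367, 282 and 394 in STZ, which after scaling came to 33.3, 32.2 and 34.6 CPM in Control and 26.7, 24.5 and 26.3 CPM in STZ. The highest STZ sample lay well under the lowest Control sample. For Chek2 the log2 fold change was -0.37 (SE 0.07, edgeR adjusted p = 3.87e-05), with an interval from -0.51 to -0.22. The call held under all 17 alternatives, with adjusted p between 2.48e-06 and 7.03e-04. Chek1 was less even, with 32.4, 27.9 and 30.2 CPM in Control and 24.9, 23.0 and 29.4 CPM in STZ. STZ replicate 3 lay inside the Control range and the other 2 STZ samples under it. Chek1 had a log2 fold change of -0.22 (SE 0.08, edgeR adjusted p = 0.0238), which was not called without Control replicate 1 (-0.17, adjusted p = 0.117), STZ replicate 1 (-0.19, 0.0986) or STZ replicate 2 (-0.15, 0.168), nor with DESeq2 (-0.22, 0.0765). Without STZ replicate 3 it was -0.33, the lowest value of any alternative.

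At the switch on cyclin-dependent kinases, the inhibitor fell and the activator did not pass the test. Wee1 had 442, 435 and 546 reads in Control and 435, 406 and 470 in STZ, or 41.7, 39.6 and 42.6 CPM in Control and 31.6, 35.3 and 31.4 CPM in STZ. All 3 STZ samples lay under all Control samples. For Wee1 the log2 fold change was -0.34 (SE 0.07, edgeR adjusted p = 4.31e-05), and the call held under all 17 alternatives, with values from -0.39 to -0.31. Cdc25a had 58.9, 61.9 and 64.2 CPM in Control and 63.0, 58.0 and 62.4 CPM in STZ, so the groups overlapped. The log2 fold change of Cdc25a was -0.01, with an interval from -0.12 to 0.10, or -8.18% to 7.15%. Groups that did not overlap were seen for 4 of the 10 checkpoint genes, against 56.3% of all genes tested. STZ was below in Chek2, Wee1 and Mdc1 (27.7% of all genes) and above in Tp53bp1 (28.6% of all genes).

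**Figure D3:**
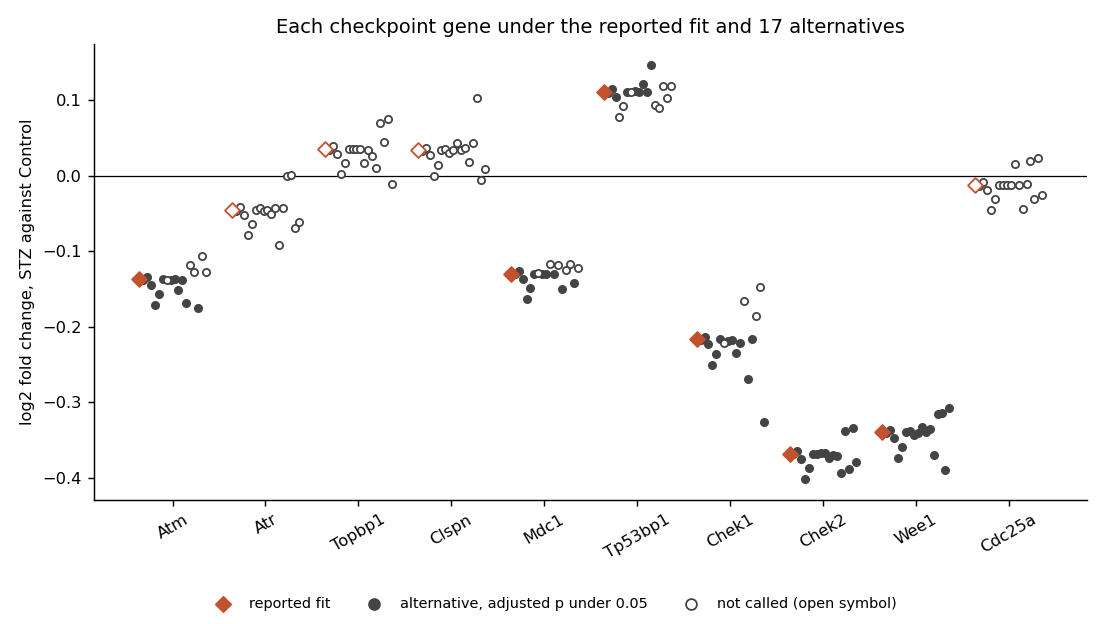
The log2 fold change (STZ against Control) of each checkpoint gene is plotted for the reported fit (diamond) and 17 alternatives (circles), filled where the adjusted p-value was under 0.05. Chek2 and Wee1 stay filled throughout, between -0.40 and -0.31, while Atm, Mdc1, Chek1 and Tp53bp1 each lose the call under 4 to 8 alternatives.

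The relatives of Wee1 and Cdc25a rose where they could be tested. Pkmyt1, which encodes the membrane-bound kinase that inhibits CDK1 beside WEE1, had 40.7 ± 3.75 CPM in Control and 47.2 ± 4.0 CPM in STZ (SD, n = 3 each), a log2 fold change of 0.20 (adjusted p = 0.0113, edgeR). That call did not hold without Control replicate 1 (adjusted p = 0.125) or STZ replicate 2 (0.0981), and the groups overlapped. Cdc25c, the phosphatase that acts at entry into mitosis, rose from 31.0 ± 1.69 to 42.5 ± 3.09 CPM (SD, n = 3 each), a log2 fold change of 0.45 (edgeR adjusted p = 4.94e-07), with every STZ sample above every Control sample. Cdc25b had 1 to 6 reads per library, too few to be tested.

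Among genes of the cell-cycle engine on which the checkpoint acts, 4 were higher, 6 lower and 1 not called of 11 tested. Thus 90.9% were called, against 50.9% of all genes, of which 25.9% were higher and 25.1% lower. The median log2 fold change was -0.22. The list was chosen with earlier results of these data known, so its share describes these genes and is not a test of them. Ccna2, cyclin A of S and G2 phase, fell from 190.1 ± 4.26 to 133 ± 5.70 CPM (SD, n = 3 each; log2 fold change -0.52, adjusted p = 1.22e-13, edgeR). The polo-like kinase gene Plk1, its activator Bora and the kinase gene Cdk2 also fell (-0.44, -0.40 and -0.34), as did the cyclin genes Ccnb1 and Ccne1. Aurka, a mitotic kinase, and Btrc, which encodes a ubiquitin ligase subunit that recognizes CDC25A and WEE1, rose (0.14 and 0.25). The call for Aurka did not hold without Control replicate 1 (adjusted p = 0.0873), Control replicate 2 (0.0556) or STZ replicate 2 (0.0759), with library size only (0.0704) or after thinning (0.0727). Cdk1, the kinase that WEE1 restrains, had a log2 fold change of -0.05 and was not called.

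The list labelled checkpoint recovery holds phosphatases and a ubiquitin protease that act on the checkpoint, and not all of them oppose it. Ppm1d, the p53-induced phosphatase that reverses ATM and CHK2 signaling, had 34.3 ± 3.28 CPM in Control and 40.1 ± 2.86 CPM in STZ (SD, n = 3 each; log2 fold change 0.22, adjusted p = 0.0104, edgeR). Control and STZ samples of Ppm1d overlapped, and the call was lost without Control replicate 1 (adjusted p = 0.0736), Control replicate 2 (0.0599), STZ replicate 2 (0.0635) or STZ replicate 3 (0.0503). Ppp5c, a phosphatase linked to ATM and ATR activation, fell by 0.32 on the log2 scale (adjusted p = 3.25e-08, edgeR), and Usp7, a ubiquitin protease that stabilizes claspin and CHK1, fell by 0.24. Of 7 genes, 1 was higher, 2 lower and 4 not called, so 42.9% were called against 50.9% of all genes, with a median of -0.05.

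S-phase genes, genes that are commonly expressed together with Chek1, Clspn and Cdc25a, include several that fell. Of 13 tested, 9 were lower, 1 higher and 3 not called, against 25.1% lower and 25.9% higher among all genes. The median log2 fold change was -0.25. These genes too were chosen with earlier results of these data known, so the counts are descriptive. Pcna, the sliding clamp of DNA polymerases, fell from 278 ± 11.1 to 167 ± 4.40 CPM (SD, n = 3 each; log2 fold change -0.73, adjusted p = 3.70e-19, edgeR). Cdt1 was the S-phase gene called higher (log2 fold change 0.17, edgeR adjusted p = 0.00218). Mcm5, called lower (-0.12), lost its call without Control replicate 3 (edgeR adjusted p = 0.104), STZ replicate 1 (0.0532) or STZ replicate 3 (0.0785). Chek1, at -0.22, was called lower in the reported fit, though not under every alternative, and lay near the median of this list. Clspn and Cdc25a, at 0.03 and -0.01, lay beside Cdc6, Mcm3 and Rrm2 (-0.03, 0.0023 and -0.10), the 3 S-phase genes that were not called. Rrm2 was called lower under 7 of 17 alternatives, among them the replicate block (adjusted p = 0.0280) and the fits without Control replicate 1 (0.00358) or Control replicate 2 (0.0460). The S-phase gene E2f1 was not analysed here. None of the genes in the 6 neighbouring lists passed an absolute log2 fold change of 1.

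**Figure D4:**
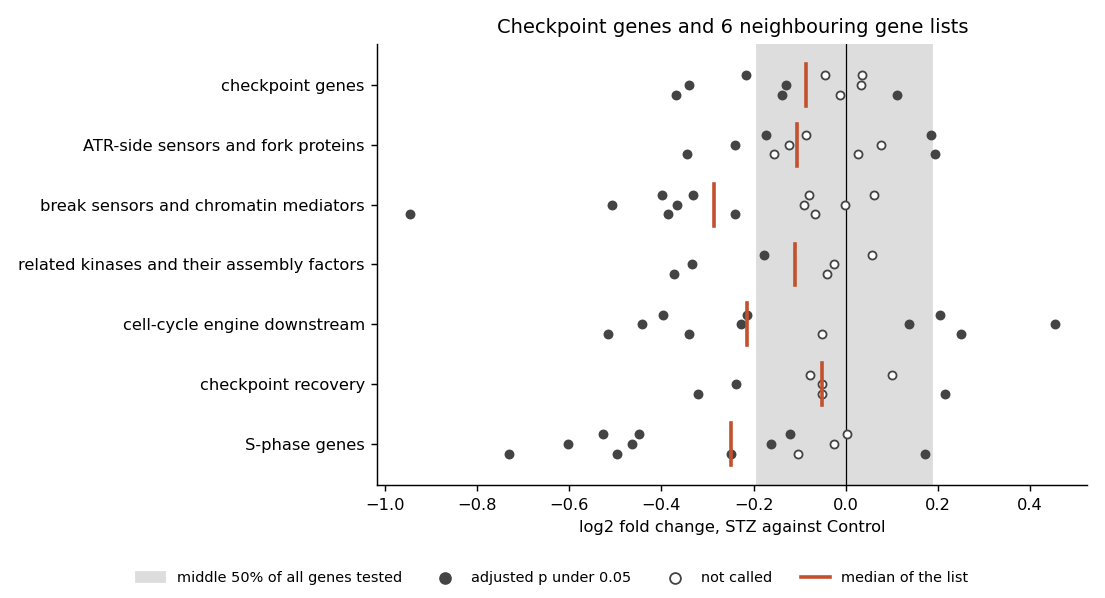
Each point is the log2 fold change (STZ against Control) of 1 gene in the checkpoint set or in 1 of 6 neighbouring lists, filled where the adjusted p-value was under 0.05, with the list median as a bar and the middle 50% of all genes tested in grey. The medians of the break mediators (-0.29), the S-phase genes (-0.25) and the cell-cycle engine (-0.22) lie left of the grey band, and that of the checkpoint genes (-0.09) lies inside it. All lists were chosen with earlier results of these data known.

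Ratios between 2 genes counted in the same library do not depend on how libraries are scaled, so 6 pairs of partners or opponents were compared. The pairs were written after the values of the genes had been seen, and since reads also follow transcript length, only the change of a ratio between groups can be read. Reads of Cdc25a per read of Wee1 were 1.41, 1.57 and 1.51 in Control and 1.99, 1.65 and 1.99 in STZ. Every STZ sample was above every Control sample, and the mean log2 ratio differed by 0.32. For Tp53bp1 per Mdc1 the ratios were 2.20, 2.14 and 2.05 in Control and 2.53, 2.50 and 2.51 in STZ, a difference of 0.24 on the log2 scale with no overlap. Clspn per Chek1 gave 2.03, 2.29 and 2.19 in Control and 2.43, 3.09 and 2.35 in STZ, a difference of 0.27 with no overlap. In these 3 pairs the exact two-sided permutation p was 0.1 (n = 3 per group), the smallest that 3 against 3 samples can give. After Benjamini-Hochberg adjustment over the 6 pairs this p was 0.2. No pair could have passed 0.05 with this number of samples, so the test decides nothing about the ratios. Without STZ replicate 2 the difference for Clspn per Chek1 was 0.14, and the other 2 pairs moved less. The groups overlapped for Chek1 per Chek2, Atr per Atm and Topbp1 per Atr, with differences of 0.14, 0.10 and 0.07. These small differences moved with single libraries: Chek1 per Chek2 was 0.05 without STZ replicate 3, Atr per Atm was 0.18 without STZ replicate 1 and 0.04 without STZ replicate 2, and Topbp1 per Atr was 0.11 without Control replicate 1, 0.04 without Control replicate 2, 0.03 without STZ replicate 1, 0.14 without STZ replicate 2 and 0.04 without STZ replicate 3.

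**Figure D5:**
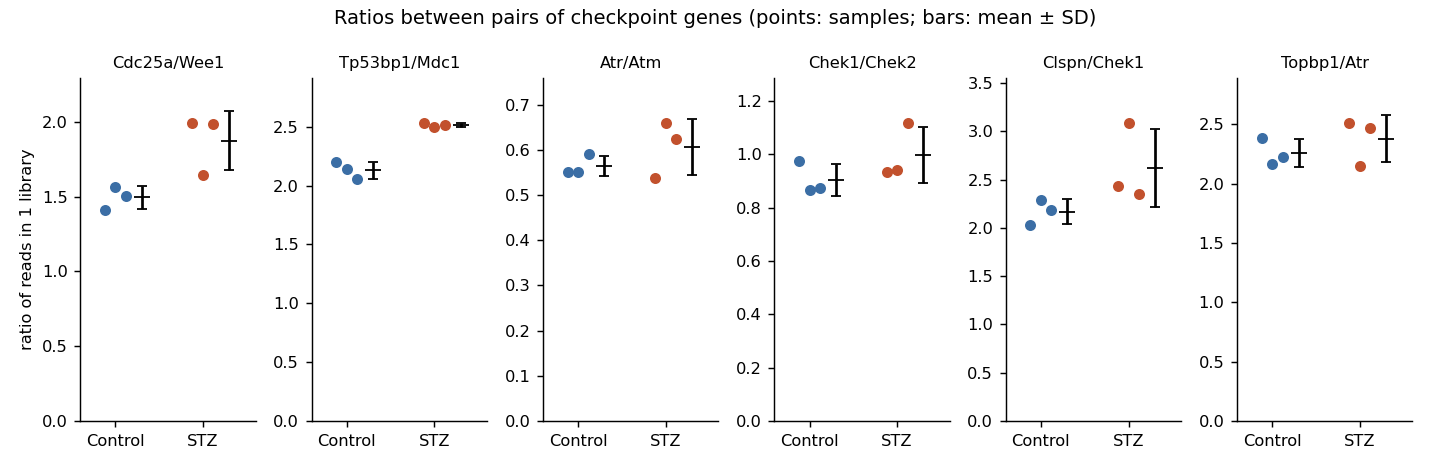
Each panel plots the ratio of reads of 2 checkpoint genes within a library, on an axis from 0, with a point for each sample and the mean ± SD beside them. The 3 STZ points are above the 3 Control points for Cdc25a/Wee1, Tp53bp1/Mdc1 and Clspn/Chek1 and overlap them in the other 3 panels.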

How the data were processed

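RNA of NRK-52E cells was sequenced in 3 Control and 3 STZ samples, grouped by their labels. The authors aligned reads to Rnor6 with STAR 2.7.10a and used featureCounts on uniquely mapped reads. The deposited values are raw counts per gene; the strand setting and annotation are not given in the sources used here. All 18930 rows entered the analysis. In edgeR 4.0.16 (R 4.3.3), low counts were removed by filterByExpr, libraries were scaled by TMM, groups were compared by glmQLFTest, and p-values were adjusted by Benjamini-Hochberg over the 11870 genes kept. Each standard error (SE) was obtained as the size of the log2 fold change over the root of its F value. The 95% interval was obtained from the SE and the total degrees of freedom of the edgeR test. That total adds degrees of freedom borrowed across all genes to the residual ones. At a given SE the intervals are therefore narrower than the residual degrees of freedom alone would give. A gene is called at an adjusted p-value under 0.05; the study also required an absolute log2 fold change over 1.

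The checkpoint genes, the neighbouring lists and the markers were chosen with earlier results of these data known. The text names all 10 checkpoint genes, their nearest relatives, in every list the gene of lowest p and any list gene past both thresholds; other list genes were named after their values were seen. Alternatives were 3 other filters, 3 other scalings, DESeq2 1.42.0, limma-voom (limma 3.58.1), edgeR's likelihood ratio test, thinning to 10430924 counts, a replicate block, and leaving out each sample. The steps were tested on simulated counts in which only a small part of the genes was changed. In the data 50.9% of genes were called, so the simulation does not test calls under so broad a change. Total counts of 10430924 to 15191349 gave the checkpoint genes 265 to 2189 reads per library and standard errors of 0.04 to 0.08 on the log2 scale. Levels are not compared between genes, because transcript lengths were not used here. GRCr8, which supplied promoters and overlaps, is not the authors' build.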

Additional observations from a re-analysis of the deposited data

How the results depend on the processing

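The number of checkpoint genes called, 6 with the settings reported, was 2 with DESeq2's Wald test and 3 to 4 with 1 sample left out. Of all genes, 50.9% were called with the settings reported, 42.5% with DESeq2 and 45.2% to 47% with 1 sample left out. The 5 lower genes became 2 with DESeq2 and 3 to 4 with 1 sample left out, and the 1 higher gene became 0 with DESeq2, library size only and the upper quartile, and 0 to 1 with 1 sample left out. The cause of these moves was not tested. Over the 10 checkpoint genes, 140 of 170 refits kept direction and call, 24 lost the call and 6 changed sign; all sign changes were in genes that were not called. With 1 sample left out, log2 fold changes ran from -0.091 to 0.0017 for Atr, -0.0062 to 0.10 for Clspn, -0.012 to 0.075 for Topbp1 and -0.044 to 0.023 for Cdc25a, which was 0.016 after thinning. Atrip was -0.0068 with library size only and -0.015 to 0.089 with 1 sample left out. Rnf168 was 0.0022 when every sample needed 10 counts, 2.1e-04 with DESeq2 and -0.062 to 0.048 with 1 sample left out, and Mcm3 was -0.0045 with at least 0.5 CPM in 1 sample, -0.031 with library size only, -0.017 with the upper quartile and -0.050 to 0.069 with 1 sample left out. With 1 sample left out, Mtor was -0.037 to 0.0015, Ppp4r2 -0.10 to 0.013 and Cdc6 -0.078 to 0.037. For the 67 other genes of the lists, markers and overlapping genes tested, 1088 of 1139 refits kept direction and call, 25 lost the call, 9 gained it and 17 changed sign. The counts of called genes in the 6 neighbouring lists stayed within 1.5 times under all 17 alternatives, and none of the checkpoint genes passed both thresholds under any. With no filter, 31.9% of all genes were called.

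The labels number the replicates 1 to 3 in both groups. Deviations of same-numbered samples from their group means had correlations of 0.0324, -0.0378 and 0.105 across 10341 genes, and not every sample correlated best with its own number, so the numbers were not taken as pairs. With the replicate block, 6 checkpoint genes were called, 5 lower and 1 higher, and none passed both thresholds. The block called 52.2% of all genes, and Rrm2 was the gene of the lists whose call it changed. Reads of 265 to 2189 per library limit what can be seen to changes of about the size of the intervals given.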
